A study of Danio rerio with 15 samples.

Results

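The genes described here build the light response of cone photoreceptors, measured here as RNA of whole zebrafish larvae bred from adults on diets with or without arsenic. They were given as 6 Ensembl identifiers, with the symbols ARR3, CNGA3 (2 copies), GNAT2, slc24a2 and ANKRD33, and 3 names, pde6c, pde6h and grk7a. Of the 32520 genes in the count table, 10 rows answered to these 9 entries. The name pde6c matched PDE6C and pde6h matched PDE6H by symbol. No row was named grk7a, and 2 rows carry the symbol GRK7 without a copy letter, so both are given by identifier. The name pde6h is also a synonym of a second gene, pde6ha, which is shown beside PDE6H.

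All larvae were of wild-type genotype per the labels and were raised in arsenic-free medium. Their parents, bred in trios of females and males, had been fed for 60 days on blackworms (Lumbriculus variegatus), a small freshwater oligochaete. The ration was 3.5% of body weight in every group. Sodium arsenite in the worms' water, held for 14 days, was 0 mg/L for the group Control, 2.5 mg/L for Low and 5.0 mg/L for High. Per dry weight, the Control worms contained less than 0.05 µg/g of arsenic and the High worms 72.47 µg/g, and the value for Low differs between the characteristics, 32.4 µg/g, and the treatment protocol, 33.42 µg/g. Larvae were collected at 5 days post fertilization, with 5 libraries in each group, and the labels give the number 20 beside the larvae without saying whether it is per library. Whether each library had its own clutch or breeding trio is not in the labels, so every p-value measures only the spread between these libraries, which may be technical.

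In a cone, light turns an opsin into an activator of the G protein transducin, whose alpha subunit is GNAT2. Transducin frees the phosphodiesterase made of PDE6C from its inhibitory subunit PDE6H, cyclic GMP falls, and the channel built with CNGA3 closes. The light response ends when the kinase GRK7 phosphorylates the opsin and the cone arrestin ARR3 caps it, while calcium is carried out by a sodium, calcium and potassium exchanger of the slc24a2 type. ANKRD33 is not part of this cascade: in the mouse it is a photoreceptor protein that holds back transcription driven by the factor CRX. The larval zebrafish retina relies on cones for its early vision.

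The total count per library was 21.2 to 59.9 M (1 M is 1000000), and values are CPM, counts per 1000000 of the library total after TMM scaling. All 10 rows passed the filter on low counts, and each had reads in every library, with 24 to 76 reads per library for GRK7 (ENSDARG00000055534) and 4586 to 21190 for GNAT2. Libraries differed in their level of transcripts of digestive organs. The mean log2 CPM of 42 pancreas, liver and intestine genes was -0.49 to 7.34 in Control, -1.26 to 6.42 in Low and -0.78 to 7.15 in High. In Low only library 5 was rich in these transcripts, and in High only library 3 was poor in them.

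The members fell into 3 kinds by their levels in High larvae. ARR3, both CNGA3 copies, slc24a2 and ANKRD33 were higher in High than in Control and were lowest in Low. GNAT2 and PDE6C had lower means in High and were near the Control level in Low, and the PDE6C libraries overlapped between all groups. The libraries of PDE6H and both GRK7 rows overlapped too, with means of PDE6H and GRK7 (ENSDARG00000020602) highest in High and lowest in Low. For High against Control, PDE6C and that GRK7 row had log2 fold changes of similar size, -0.52 (SE 0.21) and 0.58 (SE 0.23). The members were chosen by their differences between diets, since 5 of the 10 rows were among the genes called for High against Control, so values of High larvae are given as a description, without a test. In whole larvae a smaller number of cones and less RNA per cone cannot be told apart for a single gene.

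Among the genes that shut the response off, the cone arrestin row had larger fold changes in the High contrasts than either GRK7 row. ARR3 (ENSDARG00000098475) had 37.6, 25.8, 42.1, 38.9 and 40.5 CPM in Control 1 to 5, 29.5, 21.2, 18.8, 17.3 and 34.1 CPM in Low 1 to 5, and 122, 68.4, 81.3, 68.4 and 113 CPM in High 1 to 5. Every High library lay above every Control and Low library, while Low overlapped Control. The log2 fold change was 1.29 (SE 0.22) for High against Control, a 2.44-fold higher level, and 1.90 (SE 0.22) for High against Low. It stayed between 1.16 and 1.39 in 23 alternative fits of High against Control.

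The second cone arrestin row, ARR3 (ENSDARG00000056511), is not a member. It had 34.8, 17.1, 29.4, 26.9 and 30.6 CPM in Control, 14.7, 22.1, 7.97, 12.8 and 26.8 in Low and 37.8, 26.5, 19.3, 27.1 and 30.0 in High. These ranges overlapped in all 3 pairs of groups. The log2 fold change of this copy was 0.02 (SE 0.28) for High against Control by edgeR's quasi-likelihood test, with a Benjamini-Hochberg adjusted p of 0.98, and -0.72 (SE 0.28, adjusted p = 0.47) for Low against Control. Whether the copies differ from each other was not tested, and reads may have been split between them in counting.

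**Figure D1:**
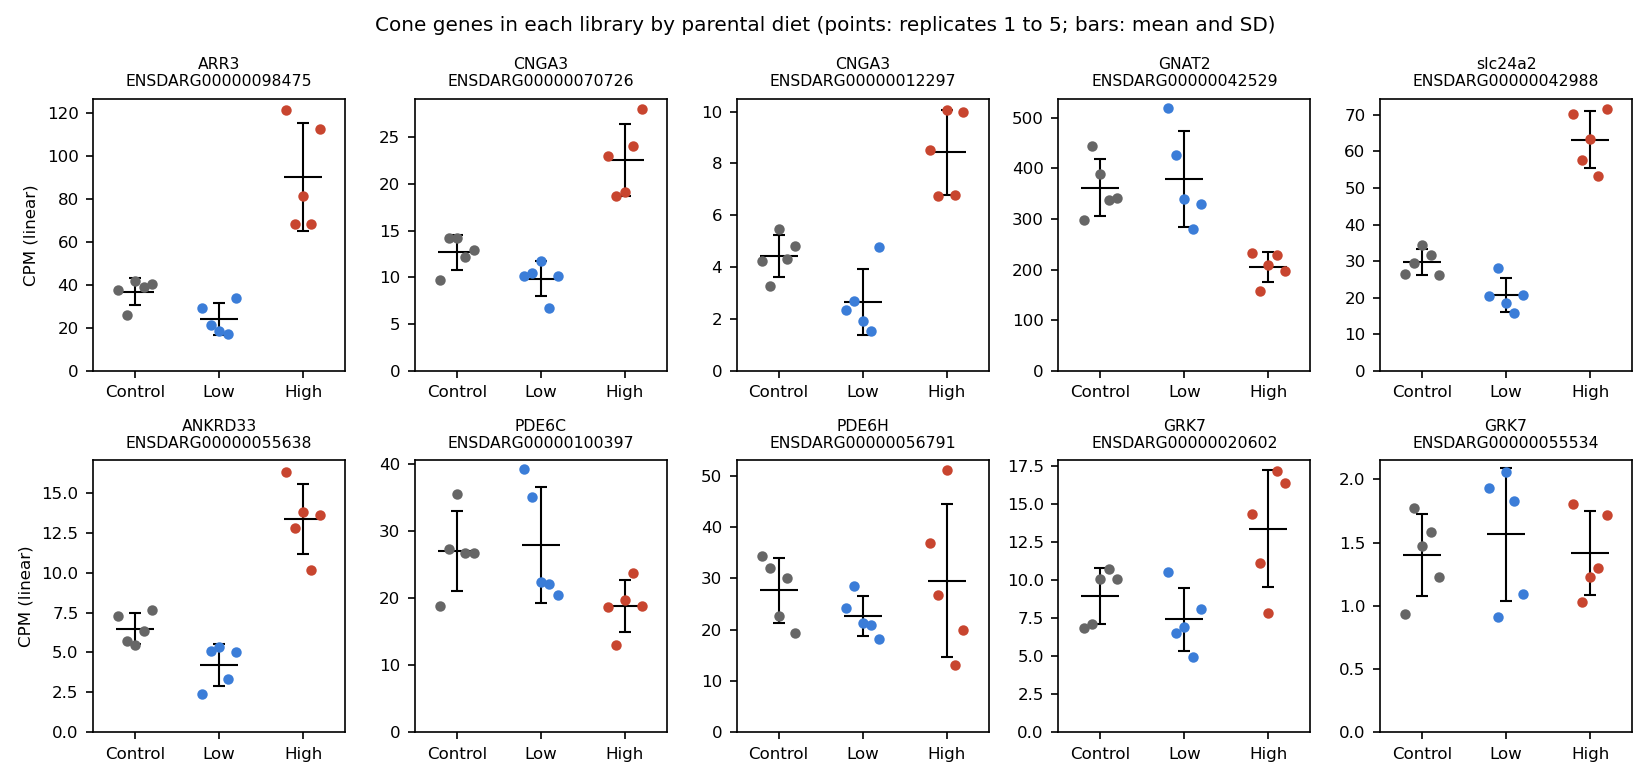
CPM (linear axis from 0) of the 10 cone gene rows in each library, by parental diet group, with replicates 1 to 5 as points from left to right and the mean and SD of 5 libraries as black bars. ARR3, both CNGA3 copies, slc24a2 and ANKRD33 have all 5 High libraries above all others, GNAT2 has all 5 below, and the remaining rows overlap.

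GRK7 kinases act one step before arrestin. GRK7 (ENSDARG00000020602) had 6.88, 7.11, 10.1, 10.7 and 10.1 CPM in Control, 10.6, 6.54, 6.94, 4.99 and 8.13 in Low, and 14.4, 11.2, 7.88, 17.2 and 16.4 in High. In High 4 of 5 libraries were above the highest Control library, and High 3 was within the Control range. The log2 fold change was 0.58 (SE 0.23) for High against Control and 0.85 (SE 0.23) for High against Low. The other row, GRK7 (ENSDARG00000055534), averaged 1.40 ± 0.324 CPM in the Control libraries, 1.57 ± 0.526 CPM in the Low libraries and 1.42 ± 0.330 CPM in the High libraries (SD, n = 5 each), all overlapping, with a log2 fold change of 0.02 (SE 0.27) for High against Control.

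Both rows for the cone channel subunit CNGA3 had the arrestin order. CNGA3 (ENSDARG00000070726) had 9.74, 14.3, 14.3, 12.2 and 13.0 CPM in Control, 10.1, 10.5, 11.8, 6.78 and 10.2 in Low, and 23.0, 18.7, 19.2, 24.0 and 28.1 in High. The lowest High library was above the highest of the other groups, and Low and Control overlapped. The log2 fold changes were 0.83 (SE 0.16) for High against Control and 1.20 (SE 0.16) for High against Low.

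CNGA3 (ENSDARG00000012297) was the lower of these rows in reads, with 42 to 299 per library. It had 4.25, 3.28, 5.47, 4.30 and 4.83 CPM in Control, 2.34, 2.69, 1.94, 1.54 and 4.77 in Low, and 8.53, 6.75, 10.1, 6.78 and 9.99 in High. High again did not overlap with either group, and Low 5 stood within the Control range while the other Low libraries were below it. For High against Control the log2 fold change was 0.93 (SE 0.25), and for High against Low it was 1.67 (SE 0.26). The partner subunit gene cngb3.2 (ENSDARG00000101368), from the list of other cone genes, had a log2 fold change of 0.63 (SE 0.25) for High against Control, with an edgeR adjusted p of 0.24.

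The exchanger gene slc24a2 (ENSDARG00000042988) had the smallest coefficient of variation of the 10 rows in Control, 11.8%, and in High, 12.4%. Its values were 26.5, 29.6, 34.4, 31.8 and 26.1 CPM in Control, 20.5, 28.2, 18.4, 15.9 and 20.8 in Low, and 70.1, 57.6, 63.5, 53.3 and 71.5 in High. All High libraries stood above the others, and Low 2 was the only Low library inside the Control range. The log2 fold changes were 1.09 (SE 0.14) for High against Control and 1.60 (SE 0.14) for High against Low. The second row of this name, SLC24A2 (ENSDARG00000063158), ran from 9.21 to 11.2 CPM in Control, 8.68 to 16.1 in Low and 8.26 to 10.7 in High. Its log2 fold change for High against Control was -0.03 (SE 0.15), with an edgeR adjusted p of 0.96.

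ANKRD33 (ENSDARG00000055638) had 7.29, 5.69, 5.47, 6.33 and 7.64 CPM in Control, 2.38, 5.11, 5.35, 3.34 and 5.04 in Low, and 16.3, 12.8, 13.8, 10.2 and 13.6 in High. Here none of the 3 groups overlapped, with Low below Control and High above both. The log2 fold changes were 1.04 (SE 0.20) for High against Control and 1.65 (SE 0.21) for High against Low. The related gene ankrd33ab had 0 to 11 reads per library and was not tested.

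In the activating limb of the cascade, GNAT2 and PDE6C had lower values in High. GNAT2 (ENSDARG00000042529) had 298, 444, 389, 337 and 342 CPM in Control, 519, 427, 339, 280 and 330 in Low, and 233, 158, 210, 229 and 197 in High. The highest High library was below the lowest library of either other group, and Control and Low overlapped widely. The log2 fold changes were -0.82 (SE 0.17) for High against Control and -0.88 (SE 0.17) for High against Low.

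PDE6C (ENSDARG00000100397), the catalytic subunit, had 18.8, 27.3, 35.4, 26.7 and 26.6 CPM in Control, 39.2, 35.1, 22.4, 22.1 and 20.4 in Low, and 18.6, 13.0, 19.7, 23.8 and 18.8 in High. All 5 High libraries were below the Control mean, and Control 1 was the only Control library inside the High range. The log2 fold changes were -0.52 (SE 0.21) for High against Control and -0.57 (SE 0.21) for High against Low.

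PDE6H (ENSDARG00000056791), the inhibitory subunit, had 34.3, 31.9, 22.6, 30.0 and 19.4 CPM in Control, 24.3, 28.4, 21.2, 20.9 and 18.2 in Low, and 36.9, 26.7, 51.1, 13.1 and 19.9 in High. High held both the highest and the lowest library, with a coefficient of variation of 50.4% against 23.0% in Control. Its relative pde6ha (ENSDARG00000102558) was also lowest in High 4, at 30.0 CPM, and reached 116 CPM in High 1. The log2 fold changes for High against Control were 0.10 (SE 0.29) for PDE6H and -0.32 (SE 0.36) for pde6ha, the second with an edgeR adjusted p of 0.73.

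Reads of ARR3 and GNAT2 were also set against each other within each library, which removes library scaling. There were 12.6, 5.82, 10.8, 11.5 and 11.8 ARR3 reads per 100 GNAT2 reads in Control 1 to 5, 4.97 to 10.3 in the Low libraries, and 52.2, 43.3, 38.7, 29.9 and 57.3 in High 1 to 5. The lowest High library was above every other library. For slc24a2 the ratio was 6.67 to 9.43 in Control, 3.96 to 6.60 in Low and 23.3 to 36.5 in High, where again no High library overlapped with another group. PDE6C kept a closer ratio to GNAT2, at 9.11 ± 0.980 reads in High and 7.45 ± 1.23 in Control (SD, n = 5 each), and these libraries overlapped. All of these ratios use values that were in view when most members were chosen, and are a description. Gene lengths were not used, so the ratios compare libraries and not the levels of the genes.

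**Figure D2:**
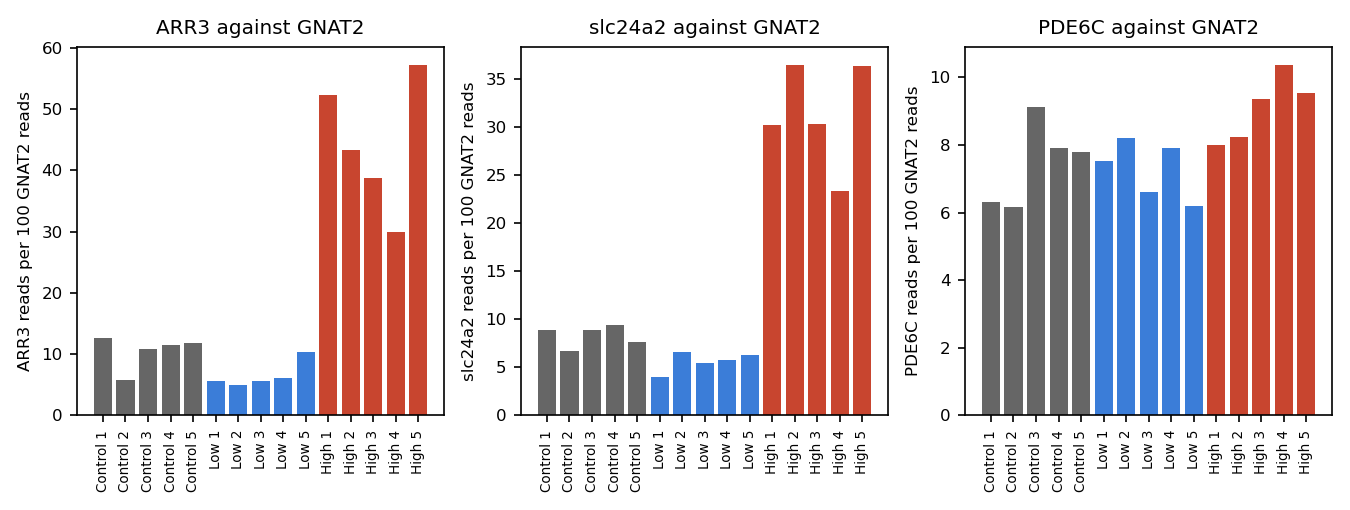
Reads of ARR3, slc24a2 and PDE6C per 100 reads of GNAT2 in each of 15 libraries (linear axes from 0; Control grey, Low blue, High red). For ARR3 and slc24a2 every High bar stands above every Control and Low bar, while the PDE6C bars overlap.

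By edgeR's quasi-likelihood test over 22012 genes with Benjamini-Hochberg adjustment, 5 of the 10 rows were below an adjusted p of 0.05 for High against Control, where 0.522% of all genes were: ARR3 (ENSDARG00000098475), CNGA3 (ENSDARG00000070726), slc24a2, ANKRD33 and GNAT2. For High against Low 6 rows were, against 1.71% of all genes, with CNGA3 (ENSDARG00000012297) added. Groups did not overlap for the same 6 rows in both contrasts, against 4.41% and 4.31% of all genes. These contrasts chose most of the members, and the 2 share the High libraries, so nothing is read from the counts. The High against Control count was 1 without Control 1, Control 2, Control 4 or High 1, and 2 without High 5. It was 3 without Control 3, High 2 or High 4, also as a description. With the replicate number as a block it was 2.

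The choice of most members rested on the High contrasts. Low against Control shares the Control libraries with 1 of them and the Low libraries with the other, so it is not independent of that choice. Earlier results of these data were also known when the genes were chosen. By edgeR's quasi-likelihood test 0 of 10 rows passed, as did 0.0% of the 22012 genes. DESeq2 called 0 rows and 62 of all genes, and limma voom with sample weights called 1431 genes and 3 rows, which were ARR3 (ENSDARG00000098475), CNGA3 (ENSDARG00000012297) and slc24a2. At an unadjusted edgeR p below 0.05 there were 2098 of all genes (9.53%) and 5 of the 10 rows, all lower in Low, against 4.94% of all genes that were lower in Low at that threshold. These rows were ARR3 (ENSDARG00000098475), both CNGA3 rows, slc24a2 and ANKRD33. ANKRD33 was the 1 row whose groups did not overlap, with Low below Control, against 1.31% of all genes without overlap in either direction. Its highest Low library, at 5.35 CPM, was close to its lowest Control library, at 5.47 CPM.

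Fold changes of the lower genes in Low were modest. For slc24a2 the log2 fold change was -0.51 (SE 0.14, edgeR adjusted p = 0.43), with 5 of 5 Low libraries below the Control mean. ARR3 (ENSDARG00000098475) had -0.61 (SE 0.22) and ANKRD33 -0.61 (SE 0.20), also below in 5 of 5 libraries, both with an edgeR adjusted p of 0.43. CNGA3 (ENSDARG00000012297) had -0.74 (SE 0.26, edgeR adjusted p = 0.43), below in 4 of 5, and CNGA3 (ENSDARG00000070726) -0.36 (SE 0.16, edgeR adjusted p = 0.49), below in 5 of 5. GNAT2 and PDE6C had 0.07 (SE 0.16) and 0.05 (SE 0.21), with edgeR adjusted p of 0.94 and 0.97. For PDE6H the value was -0.29 (SE 0.29), and for the GRK7 rows ENSDARG00000020602 and ENSDARG00000055534 it was -0.28 (SE 0.23) and 0.17 (SE 0.27), with edgeR adjusted p of 0.82, 0.77 and 0.91. Without Low 5, CNGA3 (ENSDARG00000012297) had a log2 fold change of -1.06 and passed with an edgeR adjusted p of 0.027, when 507 of all genes were called. Over its 23 alternatives the adjusted p ran from 0.021 to 0.79.

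**Figure D3:**
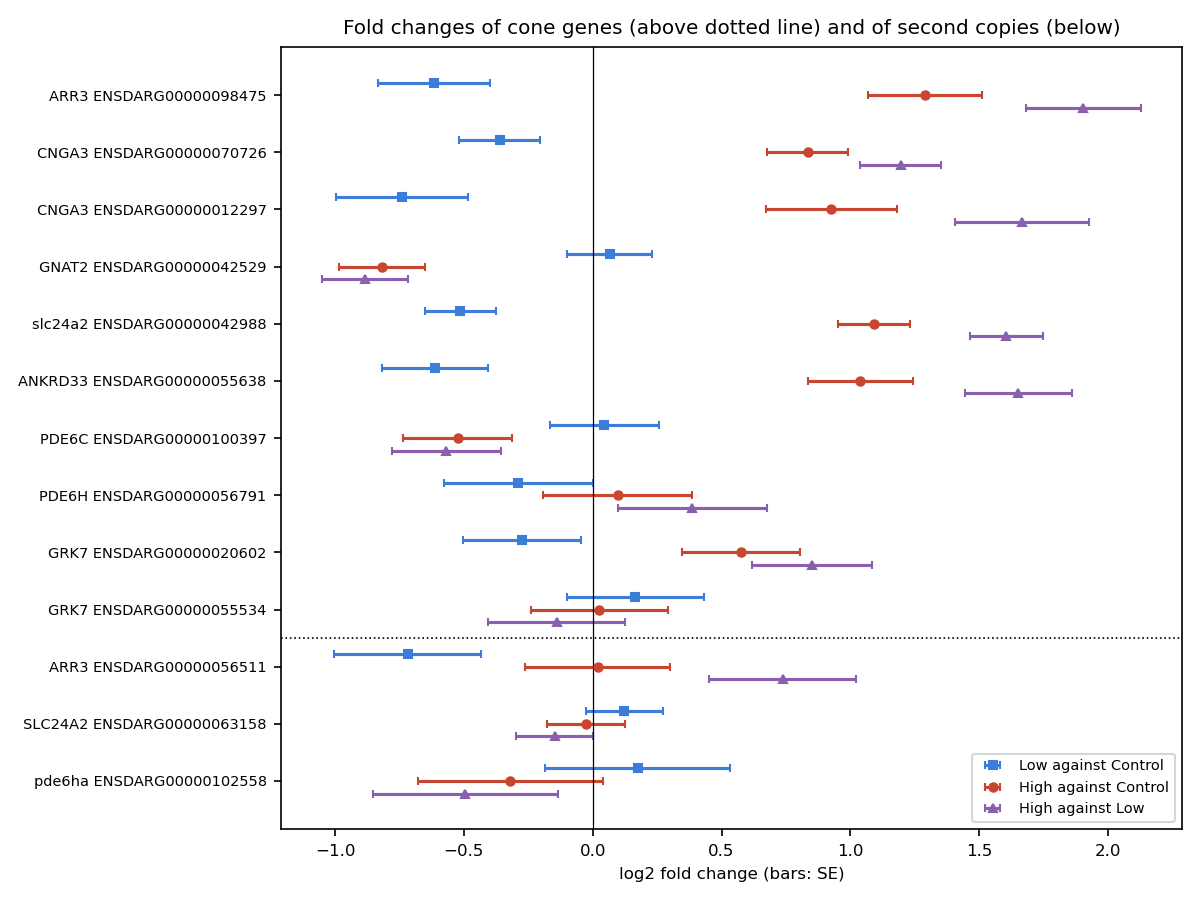
Log2 fold changes with SE (bars) of the 10 cone gene rows and of 3 second copies below the dotted line, for Low against Control (squares), High against Control (circles) and High against Low (triangles). For ARR3 (ENSDARG00000098475), both CNGA3 rows, slc24a2 and ANKRD33 the squares lie left of 0 and the circles right of it; for GNAT2 and PDE6C the circles lie left.

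The level of digestive transcripts differed between libraries of the same group, so the levels of the members are given beside it. High 3, at a digestive mean log2 CPM of -0.78, had 81.3 CPM of ARR3, 63.5 of slc24a2 and 210 of GNAT2, each inside the range of the other High libraries. Of the 10 rows 7 were inside that range in High 3, CNGA3 (ENSDARG00000012297) and PDE6H were above it, at 10.1 and 51.1 CPM, and GRK7 (ENSDARG00000020602) was below it, at 7.88 CPM. Control 2, with the highest digestive value of all, 7.34, had 25.8 CPM of ARR3, 29.6 of slc24a2 and 444 of GNAT2. Of its 10 rows 6 were inside the range of the other Control libraries. GNAT2 and GRK7 (ENSDARG00000055534) were above that range, and ARR3 and CNGA3 (ENSDARG00000012297) were below it. With the digestive mean as a covariate the log2 fold change for High against Control was 1.25 for ARR3, 1.08 for slc24a2 and -0.83 for GNAT2, beside 1.29, 1.09 and -0.82 without it, as a description. Over 23 alternatives, which include this covariate, the High against Low ranges were 1.78 to 2.06, 1.53 to 1.75 and -0.97 to -0.74. The Low against Control ranges were -0.80 to -0.51, -0.65 to -0.43 and -0.068 to 0.16. Fewer of all genes were called for High against Low with the covariate, as given at the end. In Low, library 5, at a digestive mean of 6.42, had the highest ARR3, at 34.1 CPM, and the highest CNGA3 (ENSDARG00000012297), at 4.77 CPM. It also had the lowest PDE6H and PDE6C of the Low libraries, at 18.2 and 20.4 CPM, and its other 6 rows were inside their range. Of the 42 digestive genes themselves 0 passed by edgeR for Low against Control, High against Control or High against Low. At an unadjusted p below 0.05 there were 1, 0 and 3 in those contrasts, against 9.53%, 15.8% and 21.9% of all genes. DESeq2 called 0, 0 and 1, and more of all genes than edgeR, as given at the end. The median log2 fold changes of the digestive genes in those contrasts were -1.27, 0.80 and 2.03.

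**Figure D4:**
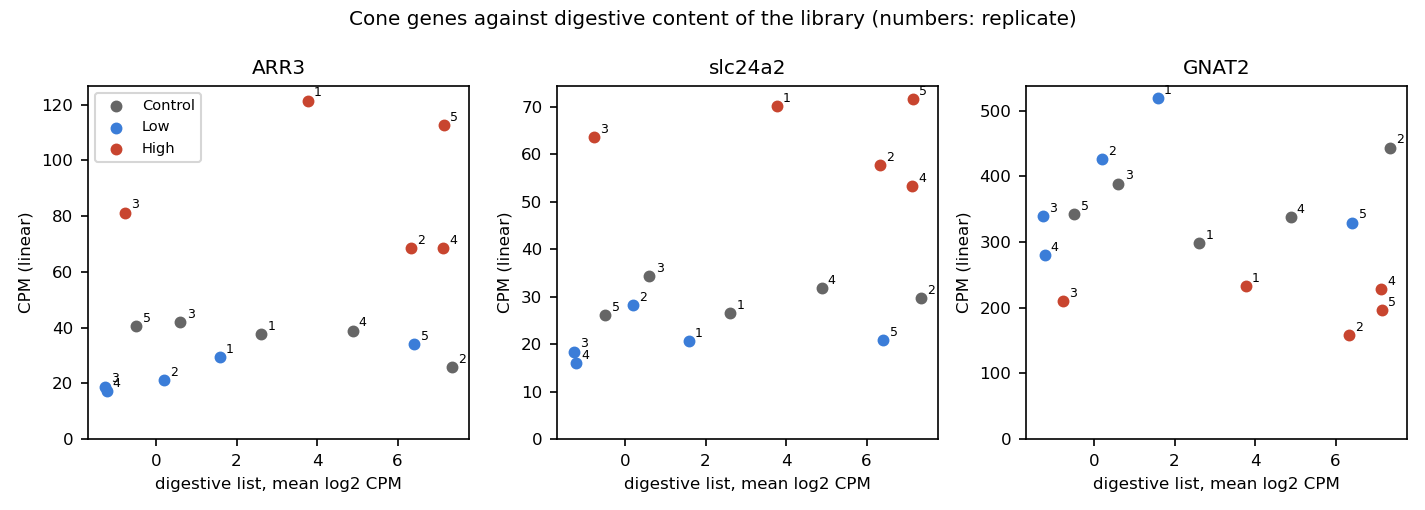
CPM of ARR3 (ENSDARG00000098475), slc24a2 and GNAT2 (linear axes from 0) against the mean log2 CPM of the digestive list in each library, numbered by replicate, with Control grey, Low blue and High red. The digestive values of each group span most of the axis, with 1 High library, High 3, at the low end (-0.78).

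Other genes of the cone cascade, 29 rows of which 25 were tested, were described by a list. By edgeR 1 of the 25 rose and 0 fell for High against Control, against 0.522% of all genes called. DESeq2 called 4 and limma voom 1, and both also called more of all genes, as given at the end. At an unadjusted edgeR p below 0.05 there were 7, 3 higher and 4 lower, against 15.8% of all genes. Of the 25, 13 were above 0, against 47.9% of all genes, and the median log2 fold change was 0.02, against -0.02 over all genes. UNC119 (ENSDARG00000034453), coding for a carrier of lipid-tailed proteins such as transducin alpha, was the gene that rose by edgeR. The row UNC119B (ENSDARG00000009629) had -0.18 in that contrast (SE 0.086, edgeR adjusted p = 0.33), with overlapping groups and 5 High libraries below the Control mean. UNC119 had 22.3, 18.4, 23.8, 19.7 and 24.8 CPM in High, against 15.7, 15.8, 14.6, 15.9 and 14.3 in Control, without overlap (log2 fold change 0.51, SE 0.098, edgeR adjusted p = 0.035). The call held in 7 of 15 fits that left out 1 library, with a highest adjusted p of 0.091 without High 1; it was lost without any 1 of Control 1 to 5, Low 3, High 1 or High 5, with those 2 groups alone, and with the replicate number as a block (edgeR adjusted p = 0.13). For High against Low UNC119 also rose (0.48, SE 0.098, edgeR adjusted p = 0.027), in 10 of 15 such fits; without Low 1, Low 3, Low 4, High 1 or High 5 it was not called, nor from those 2 groups alone, nor with the block (0.088) or the digestive covariate (0.070).

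The other named cone genes did not pass by edgeR for High against Control, while DESeq2 also called gnb3b, gc2 and RGS9BP. The cone transducin beta subunit gnb3b (ENSDARG00000002696) averaged 446 ± 66.8 CPM in High and 662 ± 128 in Control (SD, n = 5 each), which was -0.57 on the log2 scale (SE 0.18, edgeR adjusted p = 0.13) with no overlap between these groups. Its sister row GNB3, with a mean of 0.863 CPM in High and 0.341 CPM in Control, had 1.35 (SE 0.70, edgeR adjusted p = 0.37). That High mean came from 1.35 CPM in High 1 and 2.41 in High 4, while High 2, 3 and 5 had 0.10, 0.16 and 0.29. The gamma subunit rows GNGT2 had -0.36 (ENSDARG00000103543, SE 0.17, edgeR adjusted p = 0.33) and -1.69 (ENSDARG00000010680, SE 1.53, edgeR adjusted p = 0.65). The row ENSDARG00000010680 varied widely within groups, with 14.0, 27.6, 0, 18.9 and 0.02 CPM in Control and 0.12 to 13.3 in High. Of the guanylate cyclases that restore cyclic GMP, gc2 had -0.79 (SE 0.23), gucy2f -0.48 (SE 0.19) and gucy2d 0.84 (SE 0.44), with edgeR adjusted p of 0.11, 0.23 and 0.37. The level of gucy2d was low, at a mean of 1.57 CPM in High and 0.875 CPM in Control. In the complex that speeds transducin shut-off, the RGS9 rows had -0.37 (ENSDARG00000045156, SE 0.21) and 0.54 (ENSDARG00000037925, SE 0.26), with edgeR adjusted p of 0.42 and 0.33. The anchor rows were RGS9BP (ENSDARG00000086756) at 0.45 (SE 0.14) and rgs9bp at -0.30 (SE 0.27), with edgeR adjusted p of 0.13 and 0.64, so members of this complex stood on both sides of 0.

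Cone opsins, the light sensors that start the cascade, were below 0 in 7 of 7 tested genes for High against Control. Of all genes 47.9% were above 0 there. The listed name opn1sw1, also a cone opsin, matched no row, so the 7 leave it out. The median log2 fold change was -0.38. Within 1 SE of 0 were opn1mw4 (-0.87, SE 1.10), opn1lw1 (-0.19, SE 0.45) and opn1lw2 (-0.14, SE 0.30), and the others were further from 0. High and Control overlapped for every opsin except opn1mw2. The level of opn1mw4 ran from 0.19 to 52.7 CPM in High. By edgeR 0 passed, against 0.522% of all genes, with 1 at an unadjusted p below 0.05, against 15.8%. DESeq2 called 1, and it also called more of all genes, as given at the end. By edgeR against Low, 1 of 7 fell, the green-cone opsin opn1mw2 (ENSDARG00000044280), where 1.71% of all genes were called. It had 181, 131, 196, 137 and 173 CPM in High, against 443, 316, 347, 261 and 246 in Low, without overlap (log2 fold change -0.98, SE 0.17, edgeR adjusted p = 0.018). The call held in 13 of 15 fits that left out 1 library; without Low 3 (edgeR adjusted p = 0.058) or High 2, or with the digestive covariate (0.056), it was not called. For High against Control its value was -0.81 (SE 0.17, edgeR adjusted p = 0.051).

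For Low against Control 0 genes passed by edgeR in any of the 11 lists, which had 5 to 42 genes tested, as over all genes. At an unadjusted p below 0.05 there were 0 to 3 per list, against 9.53% of all genes. DESeq2 called 0 to 1 per list and limma voom 0 to 4, and both also called more of all genes, as given at the end. Lists for the rest of the eye had medians between -0.30 and 0.20 for High against Control, and 0 genes passed by edgeR in any of them. At an unadjusted p below 0.05 there were 9 outer segment and synapse genes, 3 each in the rod, transcription factor and visual cycle lists, 1 lens gene, and 0 in the inner retina and pineal lists, against 15.8% of all genes. DESeq2 called 3 of 29 outer segment and synapse genes, 1 of 18 transcription factor genes and 3 of 15 visual cycle genes. It called 0 of 18 rod, 16 lens, 22 inner retina and 5 pineal genes. DESeq2 also called more of all genes than edgeR did, as given at the end. Rod phototransduction had a median of -0.30 with 16 of 18 genes below 0, and lens genes a median of -0.30 with 16 of 16 below 0. Of all genes 47.9% were above 0 in that contrast. Photoreceptor transcription factors stood at -0.02 over 18 genes, inner retina genes at -0.18 over 22, and genes of the pineal gland, which also holds photoreceptors, at 0.03 over 5. Summed rod CPM ran from 5599 to 8652 in High and 7548 to 11531 in Control, and summed lens CPM from 11089 to 18154 in High and 15345 to 21933 in Control, so the groups overlapped. None of the rod or lens genes was at 0 in all libraries. The part of these lists in the values of the members was not tested.

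Outer segment and synapse genes had 2 of 29 rise for High against Low by edgeR, against 1.71% of all genes called. DESeq2 called 4 and limma voom 7, and both also called more of all genes, as given at the end. One was impg2a (ENSDARG00000019782), a proteoglycan of the matrix around photoreceptors, at 5.44 ± 1.71 CPM in High and 2.00 ± 0.519 in Low (SD, n = 5 each; log2 fold change 1.44, SE 0.24, edgeR adjusted p = 0.016). It was called in 14 of 15 fits without 1 library, with 0.051 without Low 3. The other, the retinol-binding gene rbp4l (ENSDARG00000044684), averaged 249 ± 43.1 CPM in High and 144 ± 25.8 in Low (log2 fold change 0.79, SE 0.14, edgeR adjusted p = 0.018). It was not called without Low 3 (0.063) or Low 4, or with the digestive covariate (0.053). For High against Control neither passed, at 0.94 (SE 0.24) and 0.56 (SE 0.14), with edgeR adjusted p of 0.079 and 0.078.

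In the visual cycle and pigment epithelium list 1 of 15 rose for High against Low by edgeR, against 1.71% of all genes called. DESeq2 and limma voom each called 4 there, and both also called more of all genes, as given at the end. RPE65 (ENSDARG00000007480), the retinoid isomerase of the pigment epithelium, had 56.1, 31.9, 6.07, 74.0 and 68.4 CPM in High and 3.77 to 5.90 in Low (log2 fold change 3.27, SE 0.64, edgeR adjusted p = 0.027). High 3, the High library poor in digestive transcripts, was near the Low range. In Control 1 to 5 the row had 4.40, 4.78, 20.4, 6.08 and 21.3 CPM. Control 3 and 5 were poor in digestive transcripts too (mean log2 CPM 0.61 and -0.49). For High against Control it had 2.05 (SE 0.61, edgeR adjusted p = 0.12). The RPE65 rows ENSDARG00000094752 and ENSDARG00000054420 had -0.56 and -0.14 in that contrast (edgeR adjusted p = 0.48 and 0.90). For High against Low, ENSDARG00000007480 was called in 7 of 15 fits without 1 library. It was lost without any 1 of Low 1 to 4, High 1, 2, 4 or 5, with a highest edgeR adjusted p of 0.083 without Low 3. With the replicate block the adjusted p was 0.095, and with the digestive covariate 0.086.

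**Figure D5:**
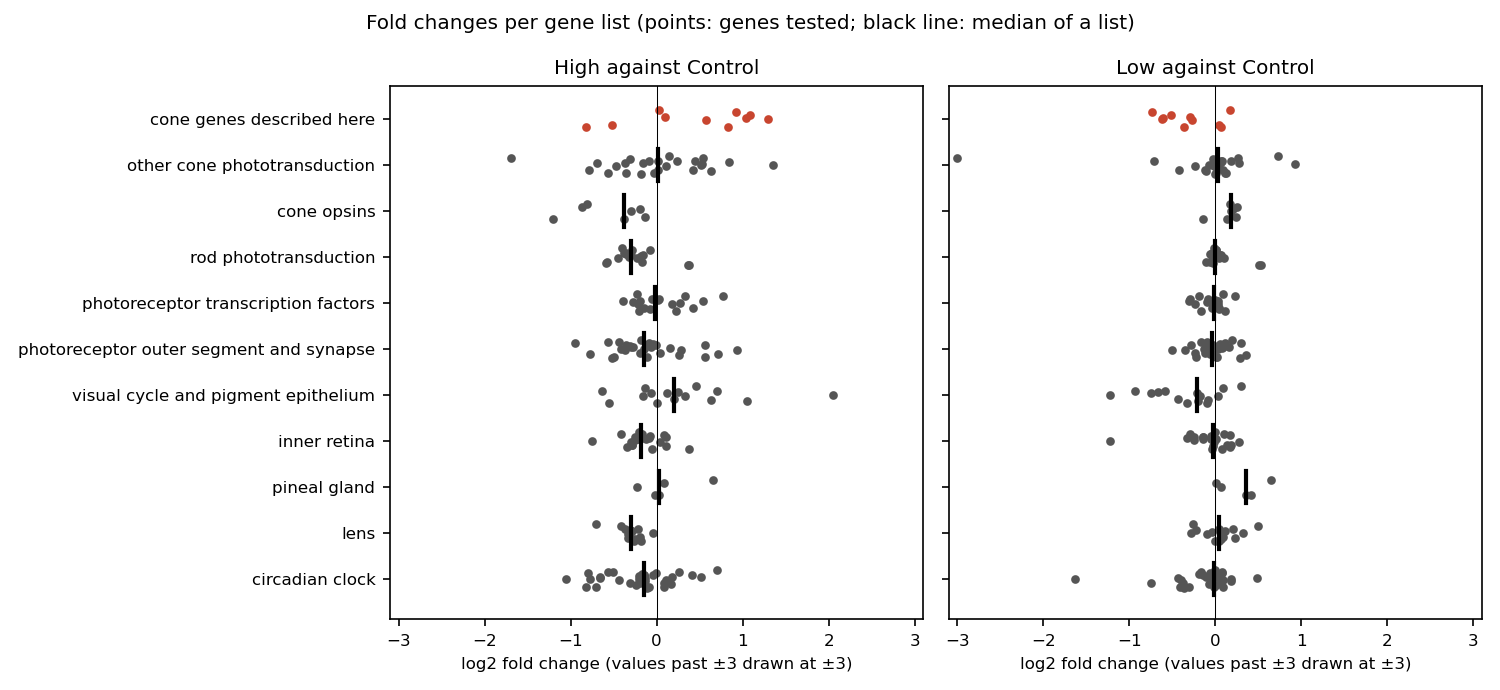
Log2 fold changes of single genes (points) in the cone genes described here (red) and in the lists for other eye and pineal genes and the circadian clock, for High against Control (left) and Low against Control (right), with each list's median as a black line. Cone opsins, rod and lens genes centre below 0 for High against Control (medians -0.38, -0.30 and -0.30), and other cone genes centre at 0.02.

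The labels used here give no hour of collection, so clock genes were listed as well. Of 33 tested, 0 rose and 4 fell for High against Low by edgeR, against 1.71% of all genes called. DESeq2 called 7 and limma voom 11, and both also called more of all genes, as given at the end. At an unadjusted p below 0.05 there were 9 in that contrast, 4 higher and 5 lower, against 21.9% of all genes. By edgeR 0 passed for High against Control and 0 for Low against Control. At an unadjusted p below 0.05 there were 11 and 3, against 15.8% and 9.53% of all genes. DESeq2 called 6 and 1 in those contrasts, and more of all genes than edgeR in both, as given at the end. BHLHE40, a transcriptional repressor of the clock, had 28.1 to 37.9 CPM in High and 45.3 to 86.9 in Low, without overlap, and its log2 fold change was -1.14 (SE 0.21) with an edgeR adjusted p of 0.018. The period genes PER1 (ENSDARG00000012499) and PER3 had -0.96 (SE 0.21) and -0.79 (SE 0.19), and the nuclear receptor gene rorcb had -0.63 (SE 0.14), with edgeR adjusted p of 0.034, 0.047 and 0.039. BHLHE40 was called in 11 of 15 fits without 1 library, and was lost without Low 1, 3 or 4 or High 2. PER1 was called in 6, and was lost without Control 4, Low 1 to 4 or High 1, 2, 4 or 5. PER3 was called in 4, and was lost without Control 1, 3 or 4, Low 1 to 4 or High 1, 2, 4 or 5. The call of rorcb held in 6, and was lost without Control 4, Low 1, 3 or 4 or any 1 of High 1 to 5. With the digestive covariate the edgeR adjusted p was 0.053 for BHLHE40, 0.12 for PER1 and 0.13 for PER3, and with the replicate block it was 0.095 for PER3 and 0.11 for rorcb. The part of these genes in the levels of the cone genes was not tested.

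The genes outside the set whose levels followed a member most closely were found by Pearson correlation of log2 CPM over the 15 libraries, as a description that includes the differences between diets. For GNAT2 they were the transducin partner gnb3b (r = 0.93, Spearman rho = 0.95), the opsin opn1mw2 (r = 0.93, rho = 0.92) and FMR1 (r = 0.92, rho = 0.89). For CNGA3 (ENSDARG00000070726) they were DTX4 (r = 0.95, rho = 0.94), impg2a (r = 0.95, rho = 0.92) and ESRRA (r = 0.93, rho = 0.89). PDCD7 led for both ARR3 (r = 0.93, rho = 0.85) and slc24a2 (r = 0.95, rho = 0.89), and skor1a was among the 3 closest of ARR3, slc24a2 and ANKRD33, at r = 0.90, 0.92 and 0.94. For CNGA3 (ENSDARG00000012297) the closest was the glycolysis gene pgam1a (r = 0.93, rho = 0.92), and for GRK7 (ENSDARG00000055534) it was KCNH5 (r = 0.86, rho = 0.81). For GRK7 (ENSDARG00000020602) the closest were mia2 (r = 0.93), mia3 (r = 0.90) and the retinal homeobox gene rx1 (r = 0.89). PDE6C was followed by SV2A (r = 0.91), CDH22 (r = 0.89) and misp3 (r = 0.87), and PDE6H by PDLIM5 (r = 0.90), the muscle troponin gene TNNI2 (r = 0.89) and tmem154 (r = 0.89).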

How the data were processed

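RNA of whole larvae was sequenced in 15 libraries. The authors deposited 1 table of raw read counts per Ensembl gene, not normalized, per the file headers and the whole-number values. Per the submitters' processing notes, tools included Trimmomatic, DESeq2, MultiQC and FastQC, with no version, and 2 builds were listed, zebrafish GRCz11 and mouse mm10. Aligner, counter, annotation and strandedness: not given in the sources used here. Thus how reads of overlapping or near-identical genes were assigned is not known.

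The table held 32520 genes and 15 lines naming no gene, which were left out. Columns were matched to samples by library name. Pairs of libraries within groups differed by a chi-square of at least 15.0 per gene, and none was merged with another. Genes were filtered with filterByExpr, leaving 22012, scaled by TMM, and tested with edgeR 4.0.16 (R 4.3.3), a robust quasi-likelihood fit on all libraries, with Benjamini-Hochberg adjustment and a threshold of 0.05. SE was taken as the size of the log2 fold change over sqrt(F), and the prior count for log2 CPM was 2. The test was checked on simulated counts. limma 3.58.1 and DESeq2 1.42.0 were alternatives. The members and gene lists were chosen with earlier results of these data known. Of 265 listed names 74 matched after dropping the copy letter and 22 matched nothing. Named list genes are those past the threshold in a High contrast, up to 4 per list by smallest p. Likeness names up to 3 genes per member, from those with an informative symbol and a mean log2 CPM of at least 1. Partners in the cone list (cngb3.2 and the transducin, cyclase and RGS9 rows) were picked after their values were seen.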

Additional observations from a re-analysis of the deposited data

Results flagged for a closer look

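In Control 2, ARR3 (ENSDARG00000098475) had 25.8 CPM, far below the other Control libraries at 37.6 to 42.1 CPM. Of 30 sets of 5 libraries (10 rows in 3 groups) this was the 1 in which a single library stood this far from the rest, and chance gives about 1 in 20. Without Control 2 the log2 fold change of ARR3 for High against Control was 1.18, against 1.29 with it.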

How the results depend on the processing

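The fold changes of the 10 rows were recomputed in 23 alternatives, 230 values for each contrast. For Low against Control 226 kept their sign. The 4 that crossed 0 were GNAT2 without Low 1 (-0.068, in a range of -0.068 to 0.16 without 1 library), and PDE6C without Control 1 (-0.060), Low 1 (-0.10) or Low 2 (-0.048), in a range of -0.10 to 0.17. In that contrast 4 values newly passed: ARR3 (-0.80), CNGA3 ENSDARG00000012297 (-1.06) and slc24a2 (-0.59) with limma voom, and that CNGA3 without Low 5 (-1.06). For High against Control 225 kept their sign, the 5 others being GRK7 ENSDARG00000055534 and PDE6H, both near 0, while 32 values lost the call (GNAT2 13, ANKRD33 8, CNGA3 ENSDARG00000070726 7, ARR3 4) and 3 gained it. For High against Low 230 kept their sign, 6 lost the call, all GNAT2, and 6 gained it.

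For Low against Control, 0 genes were called, against 1 with the replicate block, 1431 with limma voom and 62 with DESeq2. Leaving out 1 library gave 0 to 507 genes, and 0 to 1 of the 10 rows, of which limma voom called 3. For High against Control, 115 genes were called, against 51 from those groups alone, 20 with the replicate block, 275 with limma voom, 956 with DESeq2 and 10 at an adjusted p below 0.01. Leaving out 1 library gave 19 to 362. Of the 10 rows 5 were called, against 2 with the block, 1 at 0.01 and 1 to 6 without 1 library. For High against Low, 377 genes were called, against 118 from those groups alone, 106 with the block, 67 with the digestive covariate, 4656 with limma voom, 1667 with DESeq2 and 13 at 0.01, and 39 to 3778 without 1 library, the highest without Low 5. Of the rows 6 were called there, and 5 to 8 without 1 library. The cause of these differences was not tested.

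Whether libraries with the same number in different groups share more than that number is not in the labels. Correlations of their deviations from the group means ran from -0.54 to 0.54. Pairs with different numbers ran from -0.68 to 0.62, as widely, so these values cannot decide it. Counting error is small beside the spread between libraries for GNAT2, with 4586 to 21190 reads, and weighs more for GRK7 (ENSDARG00000055534), with 24 to 76.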
